A study of Homo sapiens with 6 samples.

Results

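The 4 kinases that phosphorylate the α subunit of the translation factor eIF2 (EIF2AK1 to EIF2AK4) and 6 genes that act downstream of them (ATF4, ATF3, DDIT3, CHAC1, TRIB3 and PPP1R15A) were examined in HT1080 cells, a human fibrosarcoma cell line. These 10 genes were chosen by name from a table of 62710 genes, and all 10 were among the 20716 genes with a mean level high enough to be tested. RNA sequencing gave 3 control libraries of untreated cells and 3 libraries of cells that had received 20 ng/mL of IFNβ for 24 h. The labels give the IFNβ as human, whereas the sequencing methods of the study give it as mouse. The study describes its in vitro experiments in general as independent biological replicates, but the labels do not say whether the libraries of a group came from separate cultures. If they did not, the p-values measure the spread between these libraries, which may be technical. The values are FPKM, fragment counts scaled to gene length and library size, and the libraries held between 22848104 and 32915500 fragments.

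The eIF2α kinases start what is called the integrated stress response. Each senses a different stress. EIF2AK1 (HRI) responds to heme shortage and mitochondrial stress, EIF2AK2 (PKR) to double-stranded RNA, EIF2AK3 (PERK) to misfolded protein in the endoplasmic reticulum, and EIF2AK4 (GCN2) to uncharged tRNA during amino acid shortage. Phosphorylated eIF2 slows most protein synthesis while favouring the translation of ATF4, a transcription factor that switches on genes of amino acid supply, redox balance and cell death. EIF2AK2 is also one of the classical interferon-stimulated genes. The RNA levels given here measure neither the phosphorylation of eIF2α nor the translation of ATF4.

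IFNβ raised EIF2AK2 4.63-fold and moved the mean RNA level of the other 3 kinases by at most 18.6%. Downstream, ATF3 rose 2.35-fold, DDIT3 1.63-fold, CHAC1 1.36-fold and TRIB3 1.14-fold, whereas ATF4 RNA fell by 7.45%. In all, 6 of the 10 genes were higher and 1 was lower at an adjusted p-value under 0.05, and 3 did not pass. Of all genes tested, 32.7% passed that threshold, 15.2% higher and 17.5% lower, and among tested genes with a mean of at least 1 FPKM, which 9 of the 10 have, 49.4% passed. With a log2 fold change of 1 or more in size as a second condition, EIF2AK2 and ATF3 were called differentially expressed genes (DEGs), both higher, against 4.22% of all genes tested in either direction and 3.49% upward. The median log2 fold change was 0.16 over the 10 genes and 0.00 over all genes tested. ATF3 is named by the study from these same libraries, so its direction here is not independent evidence. The study also reports both ATF3 and CHAC1 as higher by RT-qPCR and western blot in IFNβ-treated HT1080 cells.

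Short stretches of the promoters are printed for the 4 genes in which 1 of 4 motifs was found. They show where the matched letters lie around the transcription start. The reference entries run from 250 bases before to 50 after each RefSeq start on GRCh38.p14, and 9 of the 10 genes had one. EIF2AK1 did not. The motifs were GAAANNGAA (the core of the interferon-stimulated response element, ISRE), TGATGNAA (the core of the C/EBP-ATF element bound by ATF4), TGACGTCA (the cAMP response element, CRE) and TTCNNNGAA (the GAS element of STAT dimers), searched on both strands. Capitals mark the match, and no match overlapped another in these windows.
EIF2AK2, chr2:37156951-37157026, minus strand, ISRE core: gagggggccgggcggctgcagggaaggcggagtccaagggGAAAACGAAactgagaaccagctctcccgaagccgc
ATF3, chr1:212565176-212565263, plus strand, C/EBP-ATF core: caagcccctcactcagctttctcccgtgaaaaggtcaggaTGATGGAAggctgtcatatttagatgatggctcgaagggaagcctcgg
CHAC1, chr15:40953222-40953309, plus strand, C/EBP-ATF core read on the other strand: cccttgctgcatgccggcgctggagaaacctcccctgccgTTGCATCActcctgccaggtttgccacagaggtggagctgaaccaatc
PPP1R15A, chr19:48872323-48872410, plus strand, CRE: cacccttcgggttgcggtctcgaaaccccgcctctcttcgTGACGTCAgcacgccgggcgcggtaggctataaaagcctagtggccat

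The ISRE core of EIF2AK2 spans the RefSeq start of its window, from position −6 to position 3, counted with no position 0. Relative to the RefSeq start of the window, the core in ATF3 lies at −191 to −184, and that in CHAC1 at −209 to −202. The CRE of PPP1R15A lies at −58 to −51. ATF3 had another window, which held none of the 4 motifs. The RefSeq starts of these 4 windows lie inside the GENCODE gene intervals printed below, so the positions do not count from the ends of those intervals. The windows of EIF2AK3, EIF2AK4, ATF4, DDIT3 and TRIB3 held none of the 4 motifs, which says only that these letters are not in them. Such matches are common by letters alone. Of 27305 genes with a window, 9.86% held the ISRE core, 4.46% the C/EBP-ATF core, 2.25% the CRE and 9.38% the GAS element. A match is a description of sequence and not a measured binding site.

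EIF2AK2 (ENSG00000055332, chr2:37099210-37157065, minus strand, GRCh38) encodes PKR. Its level was 9.97, 10.48 and 10.24 FPKM before and 48.03, 47.38 and 46.68 FPKM after IFNβ. The lowest treated library was thus far above the highest untreated one, and the spread within either group was small, with a coefficient of variation of 2.48% in untreated and 1.43% in treated cells. The log2 fold change was 2.20 ± 0.03 (SE, n = 3 per group), with a 95% interval of 2.14 to 2.26 and a limma adjusted p of 3.5e-08. Between 2514 and 16324 fragments per library lie behind these values. Of all genes tested, 1.05% had a log2 fold change at or above that of EIF2AK2.

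EIF2AK1, EIF2AK3 and EIF2AK4 moved little. EIF2AK1 (HRI, chr7:6022244-6059230) was measured at 28.26, 27.69 and 26.17 FPKM in untreated and 25.41, 27.20 and 26.81 FPKM in treated cells. The groups overlapped, and the log2 difference of −0.05 (95% interval −0.14 to 0.05, adjusted p = 0.41) did not pass. In the annotation, 532 bases of its exons are shared with exons of AIMP2 on the other strand, a gene with a mean of 21.2 FPKM, and the sources used here do not state whether strand was used in counting. EIF2AK4 (GCN2, chr15:39934146-40035591) rose from 14.78, 14.47 and 14.22 FPKM to 15.80, 16.14 and 15.68 FPKM. These groups did not overlap, although the step was only 0.13 ± 0.02 on the log2 scale (SE, adjusted p = 0.0080).

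EIF2AK3 (PERK, chr2:88556741-88627576) had the lowest FPKM of the 10 genes as deposited. It stood at 0.63, 0.66 and 0.70 FPKM in untreated cells and at 0.54, 0.55 and 0.54 FPKM after IFNβ, so that every treated library was below every untreated one. The log2 difference of −0.25 (95% interval −0.53 to 0.02) had an adjusted p of 0.14. Its call differed between fits, and limma-voom on the fragment counts recovered from the FPKM gave −0.30 with an adjusted p of 0.0033. The FPKM of EIF2AK3 also imply a gene length of 20691 bases, 3.81 times the 5434 exonic bases of GENCODE release 29, which lowers its deposited level against other genes. At such a level the added 0.1 FPKM also shrinks the fold: the log2 ratio of the mean FPKM was −0.30, and the fitted value −0.29 with a pseudocount of 0.01 and −0.11 with 1. With the GENCODE length, EIF2AK3 would stand at 2.53 FPKM in untreated and 2.06 FPKM in treated cells. For the other 3 kinases that ratio lay between 0.99 and 1.03.

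The order of the kinases by FPKM therefore changed. In untreated cells EIF2AK1 (27.4 ± 1.08, mean ± S.D., n = 3) stood above EIF2AK4 (14.5 ± 0.277), EIF2AK2 (10.2 ± 0.254) and EIF2AK3 (0.664 ± 0.0307). After IFNβ, EIF2AK2 (47.4 ± 0.679) came first, ahead of EIF2AK1 (26.5 ± 0.939), EIF2AK4 (15.9 ± 0.239) and EIF2AK3 (0.541 ± 0.00526). No neighbours in either order overlapped in their libraries. The ratio of EIF2AK2 to EIF2AK1 went from between 0.353 and 0.391 to between 1.74 and 1.89.

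As a share of the summed FPKM of the 4 kinases, EIF2AK2 made up 18.59%, 19.66% and 19.94% without IFNβ and 53.50%, 51.91% and 52.03% with it. The means differed by 33.09 percentage points (exact permutation test, two-sided p = 0.10, the smallest p that 3 libraries against 3 allow). The summed FPKM of the 4 kinases rose from 52.76 ± 1.251 to 90.25 ± 0.877 (S.D., n = 3), while the sum without EIF2AK2 was 42.5 ± 1.32 in untreated and 42.9 ± 1.08 in treated cells (exact permutation p = 0.6). With the exonic lengths of GENCODE release 29, an alternative chosen after the data were seen, the difference in the share of EIF2AK2 was 33.18 percentage points. In RNA from whole cultures, a higher level in each cell and a larger share of cells with the RNA cannot be told apart.

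**Figure D1:**
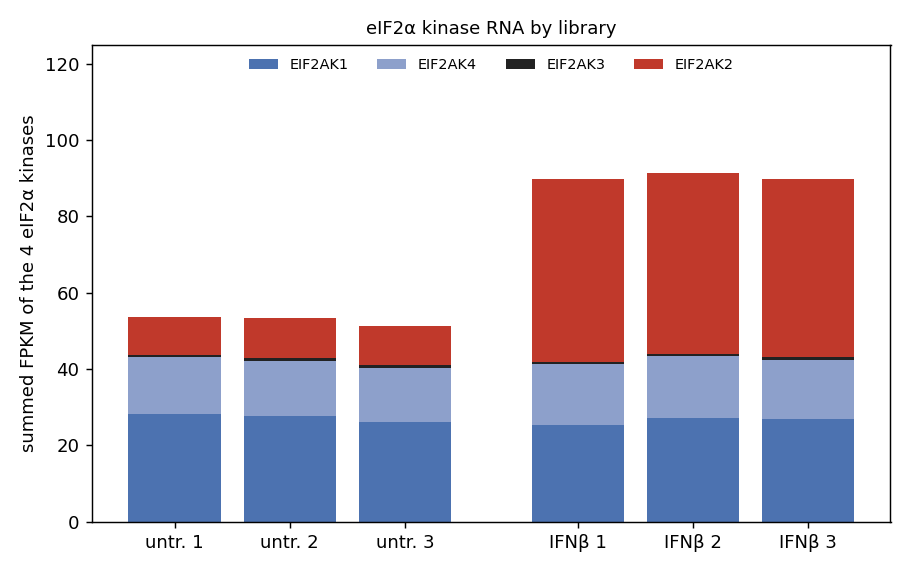
Stacked bars of the FPKM of EIF2AK1, EIF2AK4, EIF2AK3 and EIF2AK2 (vertical axis, summed FPKM) in each of the 3 untreated and 3 IFNβ-treated libraries. The EIF2AK2 segment grows from about 19.4% to 52.48% of the bar on average, while the sum of the other segments stays between 41.1 and 43.9 FPKM in all 6 libraries.

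Among the transcription factors, ATF4 was the most abundant of the 10 genes in every library. ATF4 (chr22:39519695-39522685) is the central activator of the response. It was measured at 122.6, 124.5 and 120.4 FPKM in untreated cells and at 113.9, 111.7 and 114.6 FPKM after IFNβ. The groups did not overlap, and the log2 difference was −0.11 ± 0.02 (SE, adjusted p = 0.0062). The call was lost when limma was fitted without the intensity trend (adjusted p = 0.066). The annotation holds 4 pseudogenes named after ATF4, whose mean level reached at most 0.56 FPKM.

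ATF3 (chr1:212565334-212620777), a stress-induced factor of the same bZIP family, was low in untreated cells at 1.17, 1.22 and 1.05 FPKM. After IFNβ it stood at 2.81, 2.52 and 2.77 FPKM, with every treated library above every untreated one. The log2 fold change was 1.17 ± 0.08 (SE), with a 95% interval of 0.97 to 1.36 and an adjusted p of 1.3e-04. Between 108 and 349 fragments per library support these levels. With a pseudocount of 1 in place of 0.1 the log2 fold change was 0.78, which passed the p-value threshold but not the fold required of a DEG.

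DDIT3 (CHOP, chr12:57516588-57521737), the factor linked to cell death in prolonged stress, rose from 4.35, 4.28 and 3.72 FPKM to 7.30, 6.92 and 5.96 FPKM. The groups did not overlap, and the log2 fold change was 0.69 ± 0.09 (SE, adjusted p = 0.0020). Of the exonic bases of DDIT3, 27.2% (355 of 1307) are shared with MARS1 on the other strand, which was far more abundant at a mean of 47 FPKM. MARS1 itself fell by 0.14 on the log2 scale (adjusted p = 0.0024). The part of antisense reads in the DDIT3 values was not tested.

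**Figure D2:**
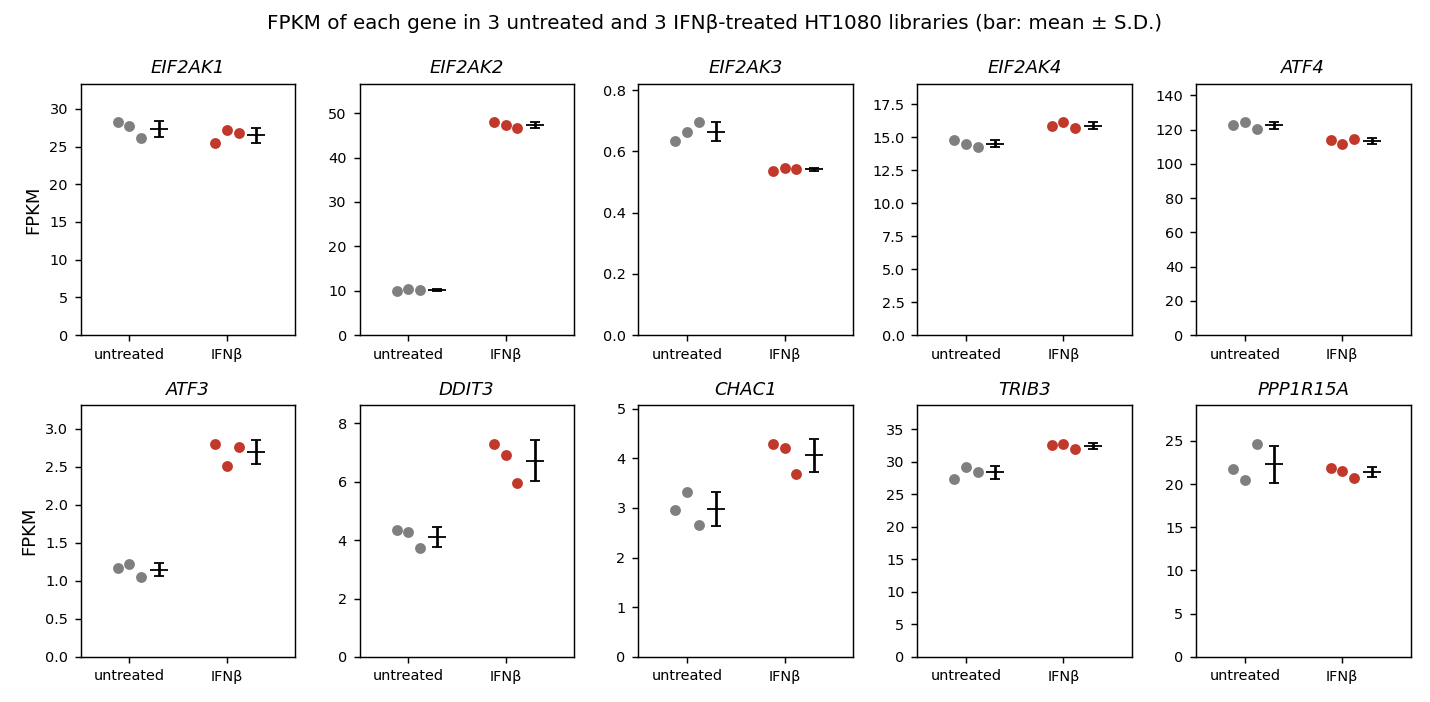
FPKM (vertical axes, each from 0 and on its own scale) of the 10 genes in the 3 untreated (grey) and 3 IFNβ-treated (red) libraries, with the mean ± S.D. as a bar beside the points. EIF2AK2 and ATF3 show the widest gaps between groups, 8 genes have groups that do not overlap, and EIF2AK1 and PPP1R15A have groups that do.

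The targets and feedback genes moved by smaller steps. CHAC1 (chr15:40952962-40956519) encodes an enzyme that degrades glutathione. Its level was 2.97, 3.32 and 2.65 FPKM in untreated and 4.29, 4.20 and 3.68 FPKM in treated libraries. The groups did not overlap, yet the coefficient of variation of 11.2% in untreated cells was the highest of the 10 genes. The log2 fold change was 0.44 ± 0.10 (SE, 95% interval 0.20 to 0.67, adjusted p = 0.016). Without IFNβ replicate 1, and likewise without IFNβ replicate 2, the adjusted p was 0.057.

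TRIB3 (chr20:362835-397559) encodes a pseudokinase that is induced by ATF4 and DDIT3 and restrains them. It went from 27.34, 29.24 and 28.44 FPKM to 32.60, 32.74 and 31.94 FPKM. The groups did not overlap, and the log2 fold change was 0.19 ± 0.03 (SE, adjusted p = 0.0029). PPP1R15A (GADD34, chr19:48872392-48876057) brings protein phosphatase 1 to eIF2α and so ends the response. It was measured at 21.70, 20.46 and 24.66 FPKM in untreated and 21.81, 21.55 and 20.74 FPKM in treated cells, and these groups overlapped. The log2 difference was −0.06 (95% interval −0.22 to 0.11, adjusted p = 0.59) and became 0.02 without untreated replicate 3.

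Of the 10 genes, 8 had groups that did not overlap, a pattern found in 46.6% of all genes tested. By mean FPKM, the order of the 10 in untreated cells was ATF4, TRIB3, EIF2AK1, PPP1R15A, EIF2AK4, EIF2AK2, DDIT3, CHAC1, ATF3 and EIF2AK3. The only neighbours with overlapping libraries were TRIB3 and EIF2AK1. After IFNβ, EIF2AK2 moved from the sixth place to the second, no neighbours overlapped, and the other 9 genes kept their order among themselves. This order rests on the deposited gene lengths. With those of GENCODE release 29, EIF2AK3 was above ATF3 (1.15 FPKM) in untreated cells and below it (2.70 FPKM) after IFNβ.

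**Figure D3:**
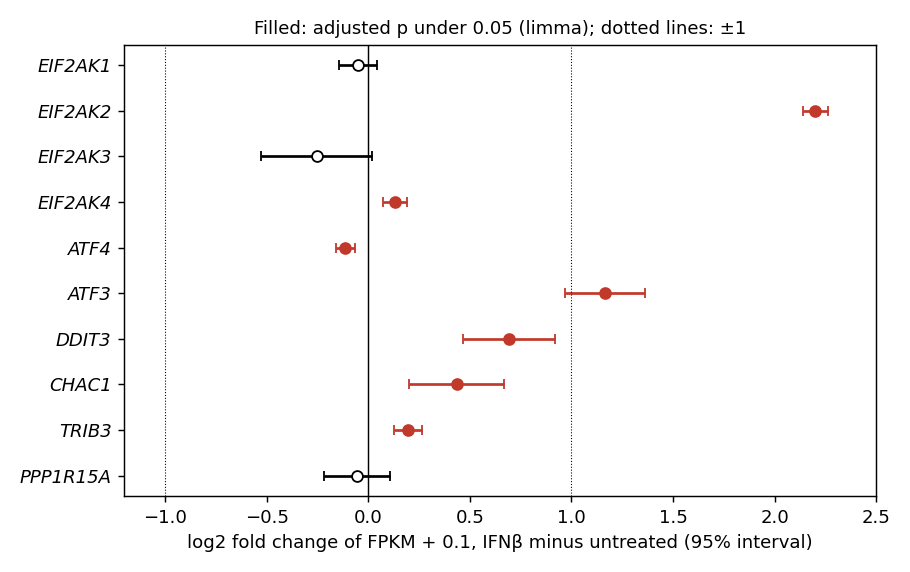
Log2 fold change of FPKM + 0.1 (horizontal axis, IFNβ minus untreated) of the 10 genes with 95% intervals from limma; filled points had an adjusted p under 0.05 and dotted lines mark 1 and −1. EIF2AK2 (2.20) and ATF3 (1.17) lie beyond 1, and the intervals of EIF2AK1, EIF2AK3 and PPP1R15A include 0.

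The substrate of the kinases and its partners moved by small steps. Of 9 genes for eIF2, its exchange factor eIF2B and the GTPase activator EIF5, 5 were lower, 4 did not pass and none was higher. Their median log2 difference was −0.13. Among all genes tested, 17.5% were lower and 15.2% higher. All 9 had a mean of at least 1 FPKM, and of the tested genes at that level 49.4% passed in either direction. EIF2S2, the β subunit of eIF2, had the smallest adjusted p, falling from 92.8 ± 1.98 to 80.1 ± 0.392 FPKM (log2 −0.21, adjusted p = 0.00044). EIF2B3, a subunit of eIF2B, fell from 7.29 ± 0.156 to 6.10 ± 0.107 FPKM (log2 −0.25, adjusted p = 0.0014). EIF2S1, the α subunit that the kinases phosphorylate, stood at 46.4 ± 0.985 and 45.2 ± 0.539 FPKM and did not pass (adjusted p = 0.22).

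Of 14 genes that regulate the kinases or remove the phosphate, 2 were higher, 7 lower and 5 did not pass. Among all genes tested 32.7% passed, and 49.4% of those with a mean of at least 1 FPKM, as all 14 had. ADAR, an interferon-induced editor of double-stranded RNA that limits PKR activation, was the single DEG and rose from 31.8 ± 0.416 to 88.8 ± 0.326 FPKM (log2 1.48, adjusted p = 3.5e-08). The other gene to rise was PRKRA, which encodes the PKR activator PACT, with a log2 fold change of 0.45 (adjusted p = 0.00035). DNAJC3, an inhibitor of PKR and PERK, fell by 0.33 on the log2 scale (adjusted p = 0.00029). PRKRA and DNAJC3 were named after their values were seen. The 3 catalytic subunits of protein phosphatase 1 (PPP1CA, PPP1CB and PPP1CC) were all lower, with log2 differences of −0.25, −0.08 and −0.21 (adjusted p = 0.0022, 0.043 and 0.00044). PPP1CB passed under only 5 of 16 alternative settings. PPP1R15B, the constitutive partner of that phosphatase, stood at 9.69 ± 0.130 and 10.0 ± 0.0115 FPKM (adjusted p = 0.16).

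Among 33 tested genes of a list of 34 ATF4 targets, 11 were higher, 12 were lower and 10 did not pass, with a median log2 difference of −0.05. The share passing was 32.7% over all genes tested and 49.4% over those with a mean of at least 1 FPKM. FGF21 was too low to test. The single DEG was WARS1, the tryptophanyl-tRNA synthetase and itself known as an interferon-induced gene, which rose from 21.8 ± 0.112 to 99.9 ± 1.11 FPKM (log2 2.19, adjusted p = 5.2e-09). The remaining genes of this list are described by function, a grouping made after their values were seen. Of the calls named for them, JDP2 passed under 11 of 16 alternatives, MTHFD2 under 12, and SARS1 and SLC3A2 under 15.

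Of the 2 tested genes for secreted stress proteins, GDF15 rose from 107 ± 3.71 to 173 ± 2.31 FPKM (log2 0.69) and STC2 rose by 0.49 on the log2 scale. Of the 5 transcription factors, ATF5 rose from 9.25 ± 0.0538 to 16.9 ± 0.774 FPKM (log2 0.86), CEBPB and JDP2 fell, and CEBPG and NUPR1 did not pass. Of 6 enzymes of serine synthesis and one-carbon metabolism, PSAT1, PSPH, SHMT2 and MTHFD2 fell, by 0.25, 0.16, 0.15 and 0.10 on the log2 scale. In that group ALDH1L2 rose by 0.53 and PHGDH did not pass. Both enzymes of proline synthesis fell, PYCR1 by 0.49 and ALDH18A1 by 0.21. Of 5 amino acid transporters, SLC38A2 (0.34) and SLC3A2 (0.16) rose, SLC7A1 fell by 0.45, and SLC7A11, the cystine transporter, and SLC7A5 did not pass (log2 −0.05 and 0.01). Of 7 genes for tRNA synthetases and tRNA export, WARS1 and SARS1 rose, XPOT, MARS1 and NARS1 fell, and AARS1 and GARS1 did not pass. Of the 6 genes outside these groups, CTH, an enzyme of cysteine synthesis (0.66), PCK2 (0.52) and SESN2 (0.40) rose, while ASNS, DDIT4 and VLDLR did not pass.

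The IRE1 and ATF6 branches sense the same endoplasmic reticulum stress as PERK. Of 17 genes, 8 were higher, 2 lower and 7 did not pass, with a median log2 difference of 0.06 and no DEG. Beside this, 15.2% of all genes tested were higher and 17.5% lower, and 49.4% of those with a mean of at least 1 FPKM passed. HSPA5 (BiP), the main chaperone of the endoplasmic reticulum, rose from 160.0 ± 2.43 to 211 ± 4.17 FPKM (log2 0.40, adjusted p = 4.3e-05). CALR, the chaperone calreticulin, rose from 444 ± 3.89 to 550 ± 9.81 FPKM (log2 0.31, adjusted p = 9.3e-05). The largest rise of the list was that of DNAJB9 (log2 0.41, adjusted p = 0.00044) and the largest fall that of SEL1L (log2 −0.38, adjusted p = 0.00028). XBP1, the factor activated by IRE1, fell by 0.16 on the log2 scale (adjusted p = 0.016), whereas ERN1, which encodes IRE1 itself, and ATF6 did not pass. The adjusted p of XBP1 was 0.05 or above under 4 of 16 alternatives, reaching 0.059.

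ATF3 and ATF4 bind DNA as dimers with other bZIP proteins. A list of 27 other bZIP genes, plotted as partners although no dimer was measured, need not hold only partners of these 2. Of the 27, 24 could be tested, and 10 were higher, 3 lower and 11 did not pass, with a median log2 difference of 0.10. BATF2, an interferon-induced bZIP factor, rose from 1.09 ± 0.169 to 26.2 ± 0.911 FPKM (log2 4.47, adjusted p = 8.6e-07). CEBPD rose from 7.50 ± 1.02 to 17.2 ± 0.871 FPKM (log2 1.20, adjusted p = 0.00028). These were the 2 DEGs. Among all genes tested, 4.22% were DEGs and 32.7% passed the p-value threshold. That threshold was passed by 49.4% of the genes with a mean of at least 1 FPKM. Within the JUN family, named after its values were seen, JUN fell by 0.44 on the log2 scale, while JUNB (0.51) and JUND (0.61) rose, all with adjusted p of at most 0.0014.

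As a reference for the size of the EIF2AK2 response, 12 other interferon-induced genes of RNA sensing and antiviral defence were used, plotted as dsRNA-binding interferon genes. They were chosen as interferon-induced genes with earlier results of these data known, so their shared direction is not a test. All 12 were higher and all were DEGs. RIGI (0.075 FPKM untreated, 1.36 FPKM treated) and ZBP1 reached the mean of 0.1 FPKM needed for testing only through the treated libraries. Among all genes tested, 3.49% were DEGs upward. The median log2 fold change of the 12 was 5.80, or 6.47 with ZBP1 at its lower bound, because ZBP1 had no fragment in any untreated library. ZBP1 was at least 93.5-fold higher after IFNβ, counted against a floor of 3 fragments per untreated library. IFIT1 rose from 0.916 ± 0.0380 to 413 ± 3.30 FPKM (log2 8.67) and OAS2 from 0.295 ± 0.0196 to 116 ± 1.36 FPKM (log2 8.20). IFIT2 rose by 7.37 and OASL by 6.72 on the log2 scale, and these 4 had adjusted p of at most 1.5e-07. The size of these folds depends on the pseudocount because the untreated levels are low. With a pseudocount of 1 the log2 fold changes were 7.75 for IFIT1, 6.49 for OAS2, 6.19 for IFIT2 and 4.74 for OASL. EIF2AK2, with 2.20, was below the lowest of the 12, IFIT5 at 2.53, and its untreated level of 10.2 FPKM was above the highest of the 12, 7.65 FPKM of IFIT5. Of the 7 genes of this list with a promoter window, 5 held the ISRE core, beside 9.86% of all genes with a window.

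**Figure D4:**
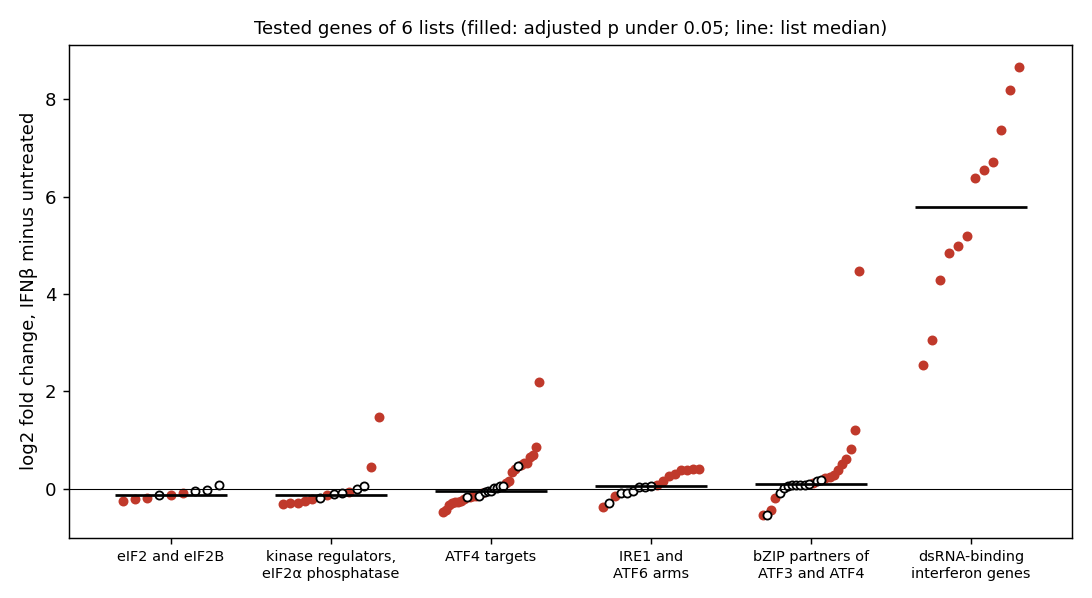
Log2 fold change (vertical axis, IFNβ minus untreated) of the tested genes of 6 lists, with filled points at an adjusted p under 0.05 and a line at each list's median. The dsRNA-binding interferon genes lie between 2.53 and 8.67, while the medians of the other lists lie between −0.13 and 0.10.

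The genes whose 6 values were nearest to those of EIF2AK2, by Euclidean distance over log2(FPKM + 0.1), were APOL2 (distance 0.43), TRIM14 (0.57), PSMB8 (0.67), IFIT5 (0.73) and CNP (0.74). Their log2 fold changes ran from 1.61 to 2.53. The nearest to ATF3 were IL18BP (0.23), MOB3C (0.35), CENPIP1 (0.39), IL7 (0.40) and SH3TC2 (0.40), with log2 fold changes from 1.00 to 1.21.

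The label of the cells was checked against marker genes. All 7 mesenchymal markers were present, with sums between 807 and 883 FPKM per library, and 8 markers of epithelial, blood, endothelial and liver cells added up to at most 0.465 FPKM. Of the mesenchymal markers, FN1 (0.51), SPARC (0.32) and COL6A1 (0.12) rose, VIM fell by 0.29 on the log2 scale, and 3 did not pass. PECAM1 was the one of the 8 other markers that was high enough to test (adjusted p = 0.59).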

How the data were processed

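The authors deposited FPKM for each Ensembl gene and library. The tools per the labels were fastp, HISAT2 and StringTie with GRCh38, while the versions, annotation and strandedness are not given in the sources used here. Gene IDs were paired with symbols through a table of gene names, and positions and exon lengths come from GENCODE release 29, which lacks 4436 of the IDs. The number of fragments behind each FPKM was recovered from the step size of the values, giving whole numbers within 0.001 for 100% of genes above 0. For 16427 genes the GENCODE length gave them, and for 18876 the smallest whole numbers that fit were taken. The latter always exist for a gene above 0 in only 1 library, so the 100% is not a check of the counts. They are too low where the true counts share a divisor. A linear model on log2(FPKM + 0.1) gave the difference between the groups, fitted in limma 3.58.1 under R 4.3.3 with moderated variances (eBayes, trend). Only genes whose mean reached 0.1 FPKM entered it. The study's own test, DESeq2, needs counts and was not used. P-values were Benjamini-Hochberg adjusted over all 20716 genes. The method was tested on simulated data, in which genes with a mean of at least 20 fragments were changed by known folds. Of those tested, 41.7% passed at a true 1.25-fold, 38.8% at 0.8-fold, 80% at 2-fold and 81.2% at 0.5-fold. A gene that did not pass may therefore still have changed. Alternatives changed the pseudocount, filter, scaling, trend, replicate block, use of fragments, and each library left out. Genes of each list were named if they were DEGs with a mean of at least 1 FPKM (up to 4 by fold), otherwise as the 2 with the lowest adjusted p. Other list genes were named outside this rule. Among them are EIF2S1, PPP1CA, PPP1CB, PPP1CC, PPP1R15B, DNAJB9, SEL1L, XBP1, ERN1, ATF6, RIGI and ASNS. Members and lists were chosen with earlier results of these data known.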

Additional observations from a re-analysis of the deposited data

How the results depend on the processing

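EIF2AK2, EIF2AK4, ATF3, DDIT3 and TRIB3 kept their direction and an adjusted p under 0.05 under all 16 alternatives, and EIF2AK1 and PPP1R15A passed under none. The log2 fold change of EIF2AK2 ran from 2.11 to 2.22. With a pseudocount of 1, 1 of the 10 genes was a DEG in place of 2, ATF3 being the one lost. Without the intensity trend, 3 of the 9 eIF2 and eIF2B genes passed in place of 5, and ATF4 had an adjusted p of 0.066. EIF2AK3 passed with limma-voom on fragments (0.0033), without the trend (0.012) and with quantile normalization (0.042). CHAC1 had 0.057 without IFNβ replicate 1 or 2. The log2 difference of PPP1R15A ran from −0.11 to 0.02 with 1 library left out, and was 0.02 without untreated replicate 3. Weighted by fragments in place of FPKM, the share of EIF2AK2 rose by 35.06 percentage points. For these changes the cause was not tested. With the replicate number as a block, 6069 genes passed in place of 6778, and no call on the 10 genes changed. Same-numbered libraries correlated at 0.053, −0.018 and 0.122 in their deviations from the group means, and differently numbered ones at −0.151 to 0.099. With 3 libraries per group, these values cannot settle whether the numbers pair the libraries. The 3 libraries per group limit every exact test to p of 0.10 or above, and FPKM near 0.1 rest on few fragments.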

Other observations

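ASNS, the asparagine synthetase often used as a readout of ATF4, was listed at only 0.471 ± 0.144 FPKM in untreated and 0.442 ± 0.0794 FPKM in treated cells (S.D., n = 3, adjusted p = 0.89). Of the 10 genes, DDIT3, CHAC1 and EIF2AK4 had their lowest value of each group in replicate 3, in untreated and in treated cells. How many of all genes tested share that pattern was not counted. Among promoter windows, 10 of 28 genes of the ATF4 target list held the C/EBP-ATF core, and 5 of 22 of the bZIP list held the CRE. Of all genes with a window, 4.46% held the C/EBP-ATF core and 2.25% the CRE.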
